A study of Homo sapiens with 6 samples.

Results

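The genes described here are 10 genes of the NRF2 oxidative stress response, taken by gene symbol from the 26255 genes in each file: NFE2L2, KEAP1, NQO1, HMOX1, GCLC, GCLM, SRXN1, TXNRD1, GSR and OSGIN1. Their RNA levels were compared between 3 samples of 22RV1 cells treated with 10 nM bruceantin (BCT) for 24 h and 3 samples given the vehicle DMSO for the same time. 22RV1 is an established human castration-resistant prostate cancer cell line, so all samples stem from a single line, and both groups grew in RPMI 1640 with 10% fetal bovine serum. BCT is a plant quassinoid that the study examined as a compound acting on the chaperone HSP90. Nothing in the labels says whether the 3 samples of a group were separate cultures, so the p-values measure the spread between these samples, which may be technical.

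NRF2, the protein encoded by NFE2L2, is the transcription factor that drives the cell's response to oxidants and electrophiles. In unstressed cells KEAP1 binds NRF2 and hands it to a CUL3 ubiquitin ligase for degradation by the proteasome, and oxidants or electrophiles that modify KEAP1 let NRF2 escape. NRF2 then pairs with a small MAF protein (MAFF, MAFG or MAFK) on antioxidant response elements of genes for glutathione synthesis, thioredoxin recycling, quinone reduction, NADPH supply and haem and iron handling. This control acts mainly on the protein, so the RNA level of NFE2L2 does not measure NRF2 activity. In prostate cancer the glutathione transferase gene GSTP1 is commonly silenced. GSTP1 was listed at 0.032, 0.036 and 0 FPKM in the DMSO samples and 0.061, 0.085 and 0.114 FPKM in the BCT samples, too low to be tested.

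Levels were deposited as FPKM, a fragment density scaled by transcript length and by the mapped reads of the sample, so that levels can be compared between genes. The files hold no read counts, and the paper gives only an average read number over the samples. The relative depth of each sample was estimated from the commonest ratio of low FPKM values between samples. With DMSO replicate 1 set to 1, this estimate was 0.883 to 1 in the DMSO and 1.06 to 1.13 in the BCT samples. The test covered 12729 genes, those averaging 1 FPKM or more over the samples, on the log2(FPKM + 0.1) scale, where the changes of low genes are understated. Calls required a false discovery rate (FDR) below 0.05 in limma together with a log2 fold change past 0.85 in either direction. The FPKM sum of a sample was 1169650 to 1572320 with DMSO and 757534 to 799838 with BCT. MIR6087 alone took 43.5% to 55.3% of it with DMSO and 31.7% to 32.5% with BCT, and was called lower at -1.33. Without MIR6087 the sums were 661026 to 702637 with DMSO and 511580 to 541473 with BCT. Markers of prostate epithelium were present in all samples, with KRT18 at 332.9 to 340.9 FPKM with DMSO and 1065 to 1148 FPKM with BCT. KRT8 has the same deposited start and end as KRT18, on the opposite strand, and any effect of this on the levels was not tested. Of 10 markers of other cell types, 6 stayed below 1 FPKM in every sample, among them PTPRC, CD3E, PECAM1 and VWF. The other markers tested, CD68, COL1A1 and ACTA2, were called higher, and the summed level of the 10 was 8.62 to 8.98 FPKM with DMSO and 24.7 to 29.4 FPKM with BCT; their part in the results was not tested.

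The 10 genes did not move as a block in BCT-treated cells. HMOX1 rose 4.10-fold and OSGIN1 4.58-fold, GCLC fell to 0.415 and GSR to 0.431 times the DMSO level, and the other 6 did not pass the fold change limit. All 10 genes passed the filter on low values. Called higher were 2 of the 10, against 13.9% of all tested genes called higher. Called lower were also 2 of the 10, against 17.8% of all tested genes called lower and 31.6% called in either direction. The FDR alone was passed by 7 of the 10, against 82.1% of all tested genes. In 6 genes every BCT sample was above every DMSO sample, which held for 41.0% of all tested genes, and in 2 every BCT sample was below, which held for 44.3%. With 10 genes, the counts of calls lie near these backgrounds. Their log2 fold changes had a median of 0.24, against -0.04 over all tested genes.

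**Figure D1:**
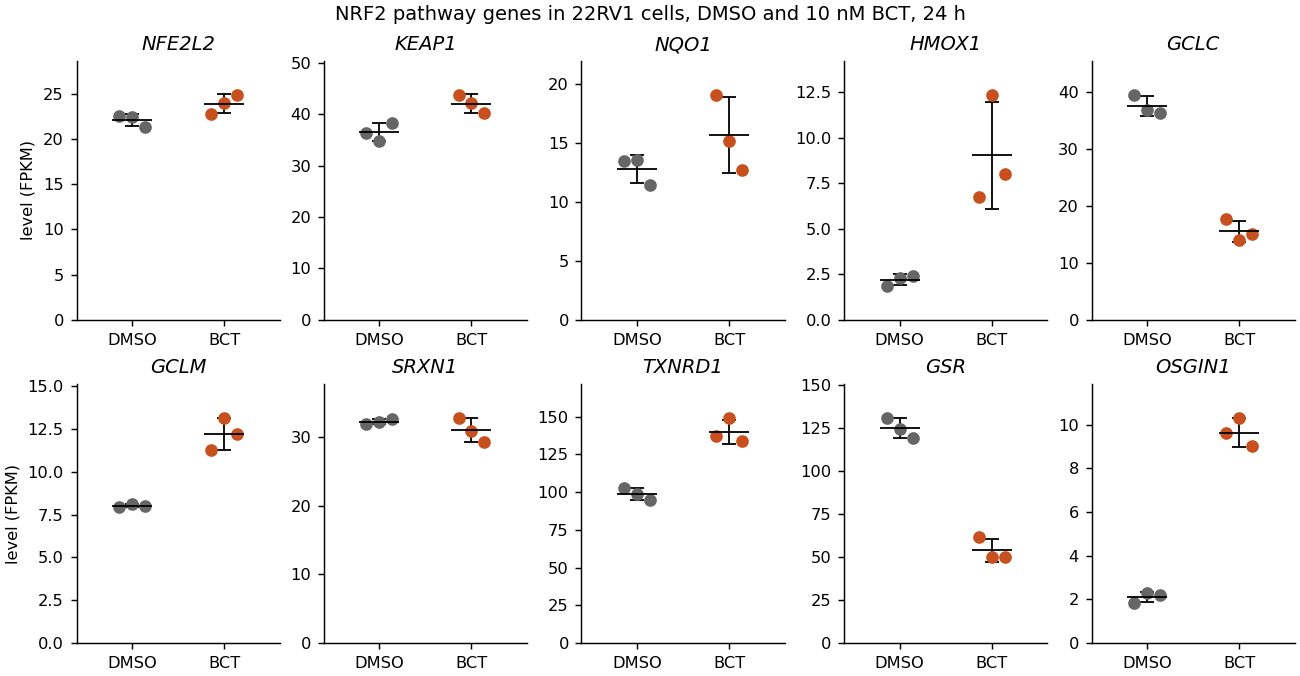
Level (FPKM, linear axis from 0) of each of the 10 genes in the 3 DMSO samples (grey) and the 3 BCT samples (orange); the horizontal line is the group mean and the bar its SD. HMOX1 and OSGIN1 are higher in every BCT sample, GCLC and GSR are lower in every BCT sample, and the groups overlap in NQO1 and SRXN1.

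How the samples were scaled matters for genes with small changes. When the FPKM sums of the samples were set equal, the all-gene median on the log2 scale moved from -0.04 to 0.72, or to 0.34 with MIR6087 left out of the sum. HMOX1 and OSGIN1 were called higher under each of the 5 scalings. GCLC and GSR stayed lower under each of them, but under equal sums they no longer reached the fold change limit, at -0.50 and -0.45, and without MIR6087 in the sum GSR did not, at -0.83. Measured against the median of all genes, GCLC lay at -1.28 to -1.22 and GSR at -1.18 to -1.08 under the 5 scalings, and OSGIN1 at 2.14 to 2.19. SRXN1, which was not called, went from -0.06 as deposited to 0.71 under equal sums, where the median of all genes was 0.72.

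**Figure D2:**
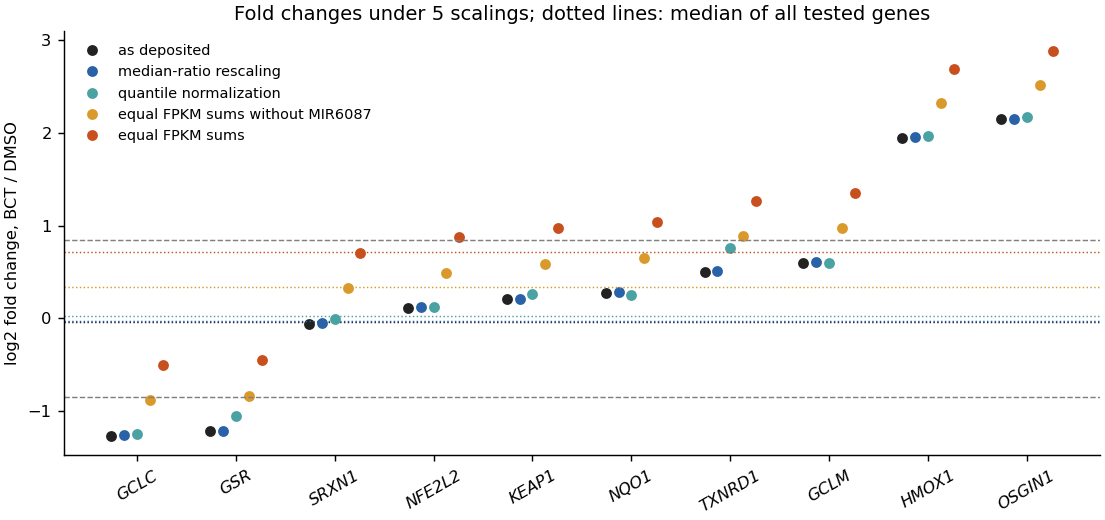
Log2 fold change (BCT against DMSO) of the 10 genes as deposited and under 4 other scalings, with the median of all tested genes under each scaling as a dotted line of the same colour and the limits of ±0.85 dashed. The equal-sum scalings lift every gene together with the median of all genes, so that 7 of the 10 genes lie above the limit under equal FPKM sums against 2 as deposited.

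The genes that set the response up, NFE2L2 and KEAP1, were not called, although under equal FPKM sums they were, at 0.88 and 0.97. NFE2L2, on chromosome 2 from 178095031 to 178129859 (hg19, minus strand), was listed at 22.5, 22.4 and 21.3 FPKM in the DMSO samples and 22.7, 24.0 and 24.9 FPKM in the BCT samples. The groups did not overlap, yet the gap between the highest DMSO and the lowest BCT sample was small. Its log2 fold change was 0.11 (SE 0.05, limma adjusted p = 0.092 by the Benjamini-Hochberg method), so a change was not detected at this spread. KEAP1, on chromosome 19 from 10596796 to 10614054 (minus strand), was listed at 36.4, 34.8 and 38.3 FPKM in the DMSO samples and 43.8, 42.3 and 40.2 FPKM in the BCT samples. All BCT samples lay above all DMSO samples, with a log2 fold change of 0.20 (limma adjusted p = 0.0096) that passed the FDR but not the fold change limit. Within a sample, the ratio of NFE2L2 to KEAP1 was 0.607 ± 0.045 with DMSO and 0.569 ± 0.050 with BCT (SD, n = 3 each), and the samples of the groups overlapped.

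Antioxidant response elements share the core TGACNNNGC, where N is any base. In the 1000 bases of hg19 before the deposited start of a gene, this core was found on either strand in 4 of the 10 genes, against 33.0% of the 11083 tested genes with a listed strand. The matches are shown because those 4 genes cover each kind of call made as deposited: NQO1 and TXNRD1 were not called, OSGIN1 rose and GCLC fell. The core is in capitals, with 10 bases on each side, read on the strand that holds the core. A match is only a match of letters, and elements farther from the start were not searched.
NQO1, chr16:69760900-69760928, minus strand: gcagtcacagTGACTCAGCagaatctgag
OSGIN1, chr16:83986278-83986306, plus strand: agacaatctgTGACTTGGCcccagttttc
TXNRD1, chr12:104609448-104609476, plus strand: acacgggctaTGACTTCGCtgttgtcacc
GCLC, chr6:53410751-53410779, plus strand: aaatatgtgtTGACAGAGCaatgacctgt
The core in front of NQO1 ended 339 bases before the gene start. Those of OSGIN1, TXNRD1 and GCLC ended 531, 91 and 834 bases before it, the last on the strand opposite to the gene.

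HMOX1 and OSGIN1 were the lowest of the 10 genes with DMSO and had the largest increases with BCT. HMOX1 encodes haem oxygenase, which breaks haem down to biliverdin, iron and carbon monoxide, and lies on chromosome 22 from 35777060 to 35790207 (plus strand). It was listed at 1.88, 2.32 and 2.42 FPKM in the DMSO samples and 6.75, 12.4 and 8.02 FPKM in the BCT samples. The lowest BCT sample was still above the highest DMSO sample, though the BCT samples spread widely. HMOX1 rose from 2.21 ± 0.290 to 9.04 ± 2.94 FPKM (mean ± SD, n = 3 each), with a log2 fold change of 1.95 (SE 0.21, limma adjusted p = 3.3e-05). OSGIN1, an oxidative stress-induced growth inhibitor gene on chromosome 16 from 83986827 to 83999937 (plus strand), was listed at 1.84, 2.28 and 2.20 FPKM in the DMSO samples and 9.61, 10.3 and 9.02 FPKM in the BCT samples. Its BCT samples lay close together, far above the DMSO samples. OSGIN1 rose from 2.1 ± 0.231 to 9.65 ± 0.651 FPKM, with a log2 fold change of 2.15 (SE 0.10, limma adjusted p = 7.1e-07). With BCT, the samples of OSGIN1 and HMOX1 overlapped in level, as they did with DMSO.

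Among the enzymes that make and recycle glutathione, GCLC and GSR were called lower as deposited, whereas GCLM was not called. Glutamate-cysteine ligase, which catalyses the rate-limiting step of glutathione synthesis, has a catalytic subunit encoded by GCLC and a modifier subunit encoded by GCLM. GCLC, on chromosome 6 from 53362140 to 53409927 (minus strand), was listed at 39.5, 36.8 and 36.4 FPKM in the DMSO samples and 17.6, 14.1 and 15.0 FPKM in the BCT samples. All BCT samples were below all DMSO samples. GCLC fell from 37.6 ± 1.72 to 15.6 ± 1.84 FPKM (mean ± SD, n = 3 each), with a log2 fold change of -1.27 (SE 0.08, limma adjusted p = 2.8e-06). GCLM, on chromosome 1 from 94350756 to 94375154 (minus strand), was listed at 7.97, 8.15 and 7.99 FPKM in the DMSO samples and 11.3, 13.2 and 12.2 FPKM in the BCT samples. All BCT samples were above all DMSO samples, and its log2 fold change of 0.60 (SE 0.07, limma adjusted p = 4.5e-05) passed the FDR but not the fold change limit. Under equal FPKM sums GCLM was called higher at 1.36, and without MIR6087 in the sum at 0.98, where the medians of all genes were 0.72 and 0.34. The ratio of GCLC to GCLM within a sample is not changed by scaling each sample with 1 factor. It was 4.96, 4.51 and 4.55 with DMSO and 1.56, 1.07 and 1.23 with BCT, so the transcripts of the catalytic subunit went from a large excess to near parity in FPKM.

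GSR encodes glutathione reductase, which returns oxidised glutathione to its reduced form with NADPH. With DMSO it was the most abundant of the 10 genes, at 130.7, 124.3 and 119.3 FPKM, and with BCT it was listed at 61.5, 50.1 and 49.6 FPKM. All BCT samples were below all DMSO samples, and BCT replicate 1 was the least reduced, as it was for GCLC. GSR, on chromosome 8 from 30535580 to 30585486 (minus strand), fell from 124.8 ± 5.71 to 53.7 ± 6.69 FPKM (mean ± SD, n = 3 each), with a log2 fold change of -1.22 (SE 0.09, limma adjusted p = 3.7e-06).

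The thioredoxin arm differed from the glutathione arm in its reductase. TXNRD1 encodes cytosolic thioredoxin reductase, the counterpart of GSR in the thioredoxin system, and lies on chromosome 12 from 104609557 to 104744085 (plus strand). It was listed at 102.9, 98.7 and 94.6 FPKM in the DMSO samples and 136.9, 149.2 and 133.7 FPKM in the BCT samples. All BCT samples were above all DMSO samples. Its log2 fold change of 0.50 (SE 0.06, limma adjusted p = 6.3e-05) passed the FDR but not the fold change limit. Under equal FPKM sums TXNRD1 was called higher at 1.27, and without MIR6087 in the sum at 0.89, where the medians of all genes were 0.72 and 0.34. The ratio of TXNRD1 to GSR within a sample read 0.787, 0.794 and 0.793 with DMSO and 2.23, 2.98 and 2.69 with BCT, so the order of the 2 reductases was reversed. The gene EID3 carries the same deposited coordinates as TXNRD1, and any effect of this on the levels was not tested. SRXN1 encodes sulfiredoxin, which repairs overoxidised peroxiredoxins, and lies on chromosome 20 from 627268 to 634014 (minus strand). It was listed at 31.9, 32.2 and 32.7 FPKM in the DMSO samples and 32.8, 31.0 and 29.4 FPKM in the BCT samples. The groups overlapped, and the log2 fold change was -0.06 (SE 0.05, limma adjusted p = 0.36). A longer gene model on the same strand covers 91.0% of the exon bases of SRXN1 in GENCODE, so its reads may not belong to SRXN1 alone.

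NQO1, which encodes a quinone reductase and is often used as a marker of NRF2 activity, was not called as deposited. Under equal FPKM sums it was called higher at 1.04, where the median of all genes was 0.72. It lies on chromosome 16 from 69743304 to 69760571 (minus strand) and was listed at 13.5, 13.5 and 11.4 FPKM in the DMSO samples and 19.1, 15.2 and 12.7 FPKM in the BCT samples. The lowest BCT sample was below 2 of the DMSO samples. The log2 fold change was 0.27 (SE 0.14, limma adjusted p = 0.10), with 0.12 when BCT replicate 1 was left out and 0.41 when BCT replicate 3 was. In GENCODE, 20.8% of the exon bases of NQO1 are shared with a gene on the opposite strand. The sources used here do not say that reads were counted by strand.

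With DMSO the genes ranked, from the most to the least abundant, GSR, TXNRD1, GCLC, KEAP1, SRXN1, NFE2L2, NQO1, GCLM, HMOX1 and OSGIN1. Of these neighbours, GCLC and KEAP1 overlapped in their samples, and so did HMOX1 and OSGIN1. With BCT the order was TXNRD1, GSR, KEAP1, SRXN1, NFE2L2, NQO1, GCLC, GCLM, OSGIN1 and HMOX1, and among neighbours NQO1 overlapped with GCLC and OSGIN1 with HMOX1. The most and the least abundant of the 10 genes had means of 124.8 and 2.1 FPKM with DMSO and of 139.9 and 9.04 FPKM with BCT.

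The proteins around NRF2 were followed in a list of 21 regulators and partners, of which 19 passed the filter. Of these, 4 were called higher and 2 lower, and the median log2 fold change was 0.06, against -0.04 for all genes; called in either direction were 31.6% of all tested genes. Under equal FPKM sums 9 were called higher and 1 lower, with a median of 0.82, and without MIR6087 in the sum 5 and 2, with a median of 0.44. Over all 12729 tested genes these were 5609 and 668 with a median of 0.72, and 3369 and 1208 with a median of 0.34. SQSTM1 encodes p62, an autophagy receptor that binds KEAP1 and is itself an NRF2 target. It was listed at 63.3, 61.2 and 62.7 FPKM in the DMSO samples and 304.5, 351.6 and 351.0 FPKM in the BCT samples, giving a log2 fold change of 2.42 (SE 0.06, limma adjusted p = 1.6e-07). The ratio of SQSTM1 to KEAP1 went from 1.71 ± 0.066 to 8.01 ± 0.932 (SD, n = 3 each). SESN2, which encodes sestrin 2, a stress-induced protein that promotes the p62-dependent degradation of KEAP1 and also a target of the factor ATF4, was called higher at 1.59. Levels of the E3 ligase scaffold CUL3 were 19.96 ± 0.909 with DMSO and 18.3 ± 1.0 FPKM with BCT, and its log2 fold change of -0.13 did not pass the FDR (limma adjusted p = 0.088).

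The small MAF genes, which encode the DNA-binding partners of NRF2, were unequal. MAFF rose from 5.35 ± 0.607 to 24.7 ± 4.56 FPKM (mean ± SD, n = 3 each), with a log2 fold change of 2.17, and MAFK rose from 12.0 ± 0.166 to 25.3 ± 2.49 FPKM, or by 1.06 on the log2 scale, a call that was lost when limma tested against a change of 0.85 (treat, adjusted p = 0.052). MAFG, the most abundant of them with DMSO at 14.4 ± 0.549 FPKM, was at 16.8 ± 0.811 FPKM with BCT and was not called as deposited. Under equal FPKM sums MAFG was called higher, at 0.98. The ratio of MAFF to MAFG was 0.405, 0.349 and 0.361 with DMSO and 1.22, 1.66 and 1.52 with BCT. BACH1, which encodes the repressor that occupies the same elements and holds HMOX1 down, was at 2.97 ± 0.185 and 3.09 ± 0.165 FPKM and was not called. Called lower were NFE2L3, a related factor gene, at -1.68, and DCAF11, which encodes a KEAP1-independent adaptor for NRF2 degradation, at -1.25, or -0.49 and no longer called under equal FPKM sums. MAFG, BACH1 and CUL3 fall outside the rule for naming genes, and their values were known when they were picked.

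**Figure D3:**
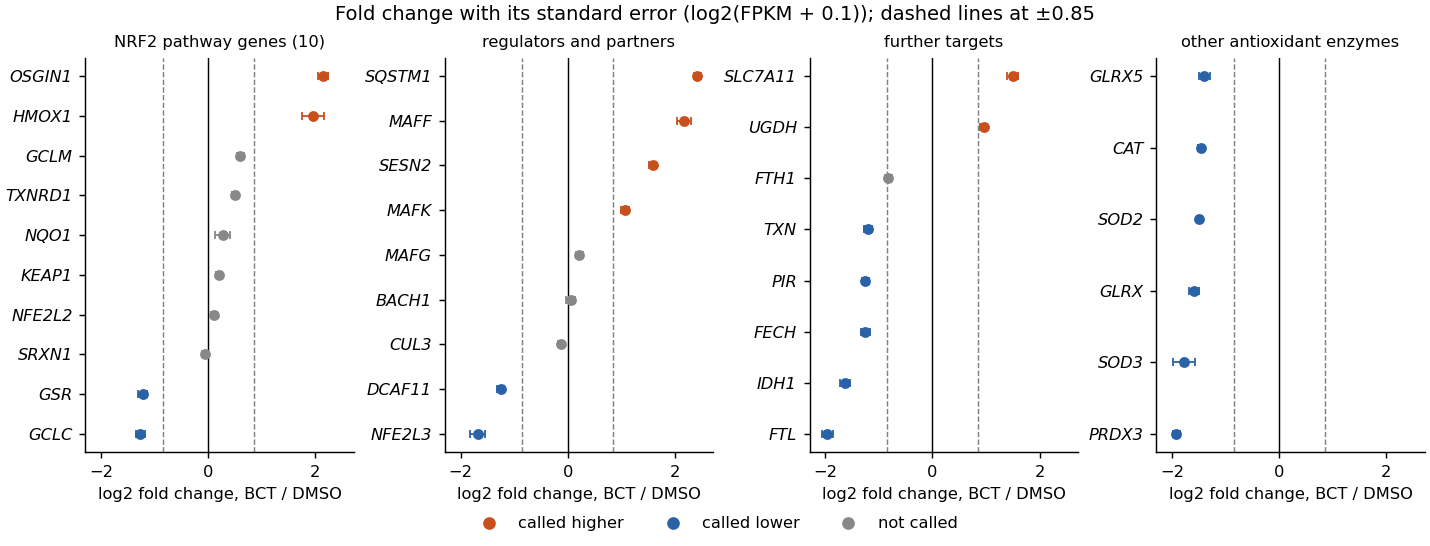
Log2 fold change (BCT against DMSO, log2(FPKM + 0.1)) with its standard error for the 10 genes, for regulators and partners, for further NRF2 targets and for other antioxidant enzymes that the text names; dashed lines mark ±0.85. The panels of further targets and of other antioxidant enzymes show genes chosen for large called changes, and FTH1, so called genes fill them by choice.

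Among targets of NRF2 outside the 10 genes, more were called lower than higher as deposited, though not under equal FPKM sums. Of 47 further targets, 37 passed the filter, 15 of them (40.5%) were called lower, 2 were called higher and 20 were not called, with a median log2 fold change of -0.67. The share called lower in all tested genes was 17.8%, and 14 of the 37 further targets were among the 1273 most abundant genes. Of those 1273 genes 22.6% were called lower, and of the 14 targets 7 were. Under equal FPKM sums the counts turned to 2 lower and 10 higher with a median of 0.10, and without MIR6087 in the sum they were 5 and 5 with a median of -0.28, in both cases below the median of all genes. Of all 12729 tested genes, 668 were called lower and 5609 higher under equal sums, with a median of 0.72. Without MIR6087 in the sum, 1208 were called lower and 3369 higher, with a median of 0.34. The genes called higher were SLC7A11 and UGDH. SLC7A11 encodes the cystine importer that feeds glutathione synthesis and is also a target of ATF4. It was listed at 6.94, 9.03 and 7.92 FPKM in the DMSO samples and 20.4, 24.3 and 23.3 FPKM in the BCT samples, giving a log2 fold change of 1.502 (SE 0.10, limma adjusted p = 3.3e-06). UGDH, which makes UDP-glucuronic acid for glucuronidation, was called higher at 0.95, just past the limit, and not when tested against 0.85 with treat (adjusted p = 0.23).

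By role, where 17.8% of all tested genes were called lower and 13.9% higher, the 3 genes of thioredoxin and peroxiredoxins, TXN, PRDX1 and PRDX6, were all called lower as deposited, and 0 of them were under either equal-sum scaling, where their median stayed negative. TXN, which encodes thioredoxin, the substrate of TXNRD1, fell from 294.3 ± 1.85 to 127.8 ± 13.7 FPKM (mean ± SD, n = 3 each), with a log2 fold change of -1.21. The ratio of TXNRD1 to TXN was 0.349, 0.334 and 0.324 with DMSO and 0.954, 1.26 and 1.10 with BCT. Of 6 genes of NADPH supply, 3 were called lower, among them IDH1, which encodes cytosolic isocitrate dehydrogenase, at -1.63. Under equal FPKM sums 1 was called lower and 1 higher, and without MIR6087 in the sum 2 and 0. Of 8 tested genes of glutathione supply, use and export, 4 were called lower and 1 higher, which became 0 and 2 under equal sums and 0 and 1 without MIR6087. Of 10 tested genes of quinone, carbonyl and xenobiotic metabolism, 1 was called lower, PIR, which encodes pirin, at -1.25, and 1 higher, which became 0 and 4 under equal sums and 1 and 3 without MIR6087. Over all 12729 tested genes, 668 were called lower and 5609 higher under equal sums, and 1208 and 3369 without MIR6087.

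Of 7 tested haem and iron genes other than HMOX1, 4 were called lower and 0 higher as deposited, against 17.8% and 13.9% of all tested genes. Under equal FPKM sums 1 was called lower and 1 higher, and without MIR6087 in the sum 2 and 0. For all 12729 tested genes these counts were 668 and 5609, and 1208 and 3369. FECH, which encodes ferrochelatase, the last enzyme of haem synthesis, was called lower at -1.25, but not under equal sums, at -0.49. FTL, which encodes the ferritin light chain, was listed at 700.8, 607.2 and 692.2 FPKM in the DMSO samples and 199.0, 161.2 and 154.3 FPKM in the BCT samples. It fell by 1.96 on the log2 scale (SE 0.10, limma adjusted p = 1.1e-06). FTH1, the heavy chain gene, went from 719.8 ± 17.9 to 408.2 ± 36.9 FPKM (SD, n = 3 each) and was not called, at -0.82. Its value ranged from -0.32 under quantile normalization to -0.89, past the limit, without BCT replicate 1, and was -0.05 under equal FPKM sums. FTH1 was named after its value was seen, as the partner of FTL. The ratio of FTH1 to FTL was 1.048, 1.152 and 1.048 with DMSO and 2.26, 2.44 and 2.47 with BCT. Ferritin genes have many processed pseudogenes, so the assignment of their reads is uncertain.

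**Figure D4:**
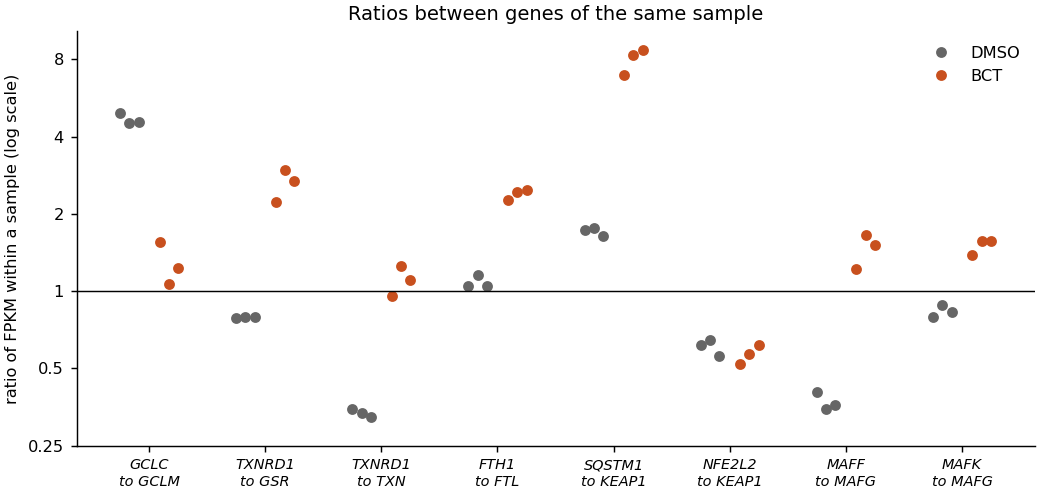
Ratio of the FPKM values of 2 genes within each DMSO sample (grey) and each BCT sample (orange), on a log axis; a scaling by 1 factor per sample cannot change these ratios. The groups are apart in every ratio shown except NFE2L2 to KEAP1, and GCLC to GCLM is the ratio that fell. The pairs were chosen after the values were seen.

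Antioxidant enzymes that are not usually counted as NRF2 targets were also called lower more often than higher as deposited. Of 21 such genes, all tested, 9 (42.9%, against 17.8% of all tested genes) were called lower and 0 higher by limma, with a median log2 fold change of -0.66. Several, among them SOD1, GPX4, PRDX2 and PRDX3, belong to the 1273 most abundant genes, of which 22.6% were called lower and 5.34% higher. Under equal FPKM sums 2 of the 21 were called lower and 3 higher, with a median of 0.06. Of all 12729 tested genes, 668 were then called lower and 5609 higher, with a median of 0.72. Without MIR6087 in the sum these counts were 7 and 1 for the 21 genes, with a median of -0.29. For all tested genes they were 1208 and 3369, with a median of 0.34. At an unadjusted limma p below 0.05, 3 were higher and 17 lower, and the shares of all tested genes at that limit were not computed. In 17 of the 21 every BCT sample was below every DMSO sample, which held for 44.3% of all tested genes. In 3 every BCT sample was above, which held for 41.0%. The FDR alone was passed by 20 of the 21, against 82.1% of all tested genes. PRDX3, the mitochondrial peroxiredoxin gene, fell from 311.6 ± 15.0 to 82.5 ± 6.34 FPKM (mean ± SD, n = 3 each), with a log2 fold change of -1.92. Called lower too were the superoxide dismutase genes SOD3 at -1.77 and SOD2 at -1.49, CAT, which encodes catalase, at -1.46, and the glutaredoxin genes GLRX at -1.59 and GLRX5 at -1.39.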

How the data were processed

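The authors trimmed the reads with Trimmomatic (version 0.38 in the submitters' processing notes), aligned them to hg19/GRCh37 with HISAT2 and assembled them with StringTie, and deposited 1 FPKM value per gene and sample; the notes also name HTSeq, with no role, and the gene annotation is not given in the sources used here. Libraries came from total RNA with the TruSeq v2 kit.

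From the deposited FPKM values, limma 3.58.1 (under R 4.3.3, with eBayes trend and without a replicate block) was fitted to log2(FPKM + 0.1) of the 12729 genes averaging 1 FPKM or more, with Benjamini-Hochberg adjustment over all of them. An exact test of 3 against 3 samples cannot go below p = 0.1, so none was used. The members and gene lists were chosen with earlier results of these data known. Named are the 10 genes, called regulators, at most 6 called further targets and antioxidant enzymes in each direction whose groups do not overlap, and the 5 profiles most like NFE2L2; 1 further target that this rule names is not reported here. Positions are deposited starts plus 1. Alternatives were scalings, pseudocounts, filters, the test, a block for replicate number, leaving out samples singly and, added after the data were seen, a GC and length correction.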

Additional observations from a re-analysis of the deposited data

How the results depend on the processing

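Of 180 results for the 10 genes outside the equal-sum scalings, 179 kept their direction and their call. A call needs both the FDR and the fold change limit. SRXN1 turned to 0.040 with the GC and length correction (chosen after the data were seen, with a value for 91.8% of tested genes). Settings that changed only the filter, the FDR limit, the test or the replicate block left each fold change as it was. In those settings only the call could change, not the direction. Under equal FPKM sums 7 of the 10 genes were called higher and 0 lower (GCLC and GSR stayed below 0, with adjusted p of 0.0031 and 0.0070), further targets were 10 higher and 2 lower, and all genes 5609 higher and 668 lower. Without MIR6087 in the sum these were 4 and 1, 5 and 5, and 3369 and 1208. SRXN1 was at 0.71 and 0.33 and CUL3 at 0.64 and 0.26 under these scalings, whose construction lifts all genes; BACH1 turned to -0.095 with the GC and length correction. Further targets called higher numbered 4 without a filter and 1 with limma's treat against 0.85. All genes called higher numbered 2657 without a filter, 1150 at a mean of at least 5 FPKM and 1033 with treat, which left 1392 called lower. With 1 sample left out, 2146 to 2488 genes were called lower and 1684 to 1932 higher, and the counts for the 10 genes stayed at 2 and 2. Same-numbered samples had correlations of 0.12, 0.033 and 0.034 between their deviations from the group means. DMSO replicate 1 with BCT replicate 1 was the highest of all pairs, while DMSO replicate 2 went best with BCT replicate 3, at 0.074. With 3 samples in a group, these values cannot decide whether same-numbered samples were paired. The FDR alone, without a call, was passed by NQO1 with the replicate block (adjusted p = 0.019) and without BCT replicate 3 (0.019) and by NFE2L2 without BCT replicate 1 (0.021), and with treat the adjusted p of KEAP1, GCLM and TXNRD1 was 1. With the replicate block 1767 genes were called higher and 2266 lower, and the calls among the 10 genes were 2 and 2. FPKM holds no counts, so counting error cannot be given.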

Other observations

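The 5 tested genes whose profile over the 6 samples was nearest to that of NFE2L2 were BBS10, FXR1, POC1B, PSMA4 and CHUK, with root mean square differences of 0.019 to 0.024 on the log2 scale after centring on the DMSO mean. All lay slightly higher with BCT, none was called, and their log2 fold changes were 0.08 to 0.12, near that of NFE2L2 at 0.11. This likeness follows from how they were picked, by nearness over the same samples, and is no result about them.

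The change of a gene varied with its level over the whole table. With the tested genes ranked by mean level and cut into 10 classes, in the most abundant class, which starts at 74.6 FPKM and holds TXNRD1 and GSR, the median log2 fold change was -0.34, with 22.6% called lower and 5.34% called higher. In the class that holds HMOX1, from 3.63 to 5.76 FPKM, the median was 0.06, with 18.9% called lower and 18.3% called higher. TXNRD1, with a log2 fold change of 0.50, thus lay above the median of the genes of its level, and GCLC at -1.27 lay below that of its own class at -0.0048.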
